A study of Mus musculus with 6 samples.

Results

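The genes described here are 10 that act as brakes on, or are switched on by, the ERK branch of the MAP kinase pathway. They are the MAP kinase phosphatases Dusp4, Dusp5 and Dusp6, the Sprouty genes Spry1, Spry2 and Spry4, the Spred genes Spred1, Spred2 and Spred3, and the ETS transcription factor gene Etv5. They were chosen by symbol, and each matched a single row among the 25805 genes listed in every library. All 10 passed the filter on low values, with 142 to 1933 recovered reads per library. The libraries are RNA of whole mouse kidney taken after ischaemia-reperfusion injury (IRI), in which the blood supply is stopped and then restored. There were 3 libraries labelled CXCR2 knockout with IRI and 3 labelled WT with IRI. Both groups carried the injury, and uninjured kidneys were not analysed here. The strain, sex, age, duration of ischaemia, time of sampling and the kind of Cxcr2 deletion are not stated in the labels, nor is it said that each library came from its own animal. The p-values below therefore measure the spread between these libraries, which may be technical. The series title names ERK1/2 among the signals through which CXCR2 was studied, and the comparison asks whether transcripts that follow ERK activity differ with the Cxcr2 genotype.

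ERK is activated by growth factor receptors and many chemokine receptors through RAS, RAF and MEK. Active ERK induces its own inhibitors. Dual-specificity phosphatases remove the activating phosphates from ERK itself. Sprouty and Spred proteins act higher up, at the step between receptor and RAS or RAF, and Etv5 is a transcription factor of the PEA3 group of the ETS family whose gene is induced by FGF and RET signalling. In the developing mouse kidney Spry1 restrains RET signalling in the ureteric bud, and Etv5 acts downstream of RET there. Because their transcripts rise with ERK output, these genes are often read as a transcript-level record of it. They do not measure phosphorylated ERK.

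Labelled-knockout library 1 stood apart from the other 5 libraries, which touches most values below. Recovered reads were 17372645 to 17937195 per library in the libraries labelled knockout and 15518083 to 20356601 in wild type. The targeted gene Cxcr2 did not fall, at 98.0, 36.8 and 56.6 normalized counts in labelled-knockout libraries 1 to 3, against 15.9, 88.8 and 56.9 in WT libraries 1 to 3. These values cover the whole gene and cannot show whether a part of it was deleted. Proximal tubule markers, which define the main epithelium of kidney cortex, summed to 59142 to 162871 normalized counts in the libraries labelled knockout and 48731 to 89445 in WT, with none of the 8 markers at 0 in any library. It held far more fat cell, neutrophil and erythrocyte transcripts than the other 5. Its 7 fat cell markers summed to 39260 normalized counts, against 2173 and 344 in labelled-knockout libraries 2 and 3, and 929 to 2613 in WT. Its 7 neutrophil markers summed to 4011, against 388 and 907 in labelled-knockout libraries 2 and 3 and 359 to 1201 in WT. Its 4 erythrocyte markers summed to 12995, against 857 and 710 in labelled-knockout libraries 2 and 3 and 627 to 2594 in WT. Adipoq and Cidea among the fat cell markers, and Ly6g and Mmp8 among the neutrophil markers, had 0 reads in at least 1 library. The 8 fibroblast, pericyte and smooth muscle markers summed to 3667 to 10406 in the libraries labelled knockout and 12358 to 26556 in WT, and the 8 endothelial markers to 4924 to 10846 in the libraries labelled knockout and 11918 to 19569 in WT. In whole tissue, fewer cells of a type and less RNA per cell cannot be told apart.

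**Figure D1:**
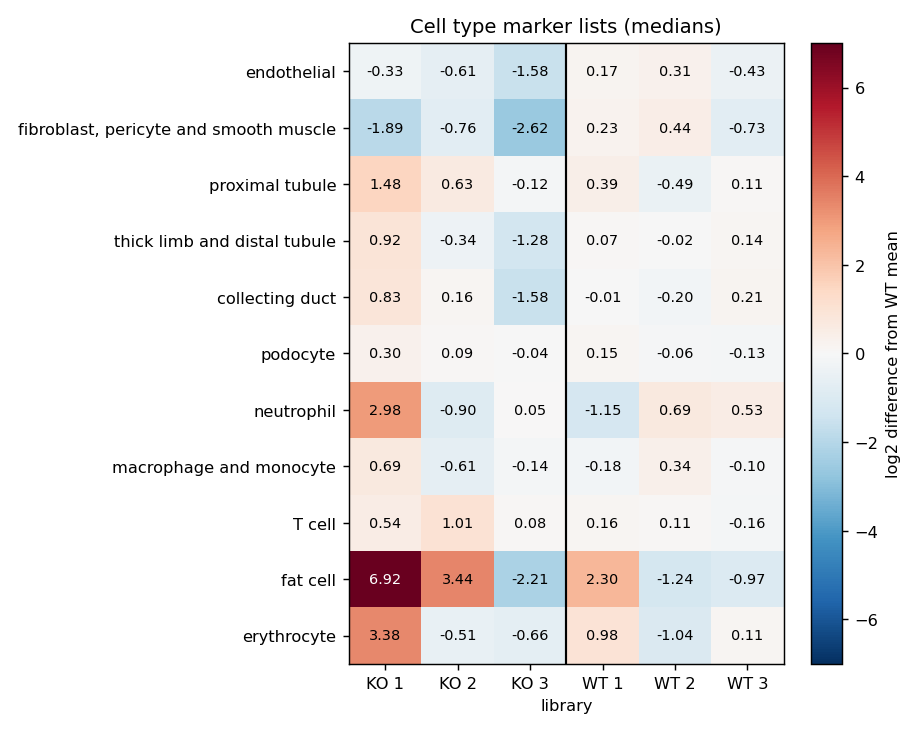
Median log2 difference from the WT mean for 11 lists of cell type markers (rows) in the 3 labelled-knockout (KO) and 3 wild-type (WT) libraries (columns), with red for higher and blue for lower. Labelled-knockout library 1 stood at 6.92 for fat cell, 2.98 for neutrophil and 3.38 for erythrocyte markers, and labelled-knockout library 3 at -2.62 for fibroblast, pericyte and smooth muscle markers.

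None of the 10 ERK feedback genes passed the test for a difference between the groups. With limma on log2(normalized count + 1), adjusted over all 21721 genes tested, their adjusted p-values ran from 0.445 to 0.958, and 0.0046% of all genes tested were called. The edgeR quasi-likelihood test and the DESeq2 Wald test on recovered reads called 0 of the 10 as well (lowest adjusted p = 0.393 and 0.237), where they called 0.00628% and 1.95% of all genes. At an unadjusted limma p under 0.05 there was 1 member, Spred3, in the lower direction, beside 6.14% of all genes. The fitted log2 fold changes of labelled knockout over WT were positive for 4 members and negative for 6, with a median of -0.06, beside -0.001 over all genes tested. The median SE of a member's log2 fold change was 0.27, so a difference of moderate size could have gone uncalled. Every labelled-knockout value lay below every WT value for 2 of the 10, Spred3 and Etv5, and above for 0, where the shares of all genes tested were 9.43% and 8.27%.

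**Figure D2:**
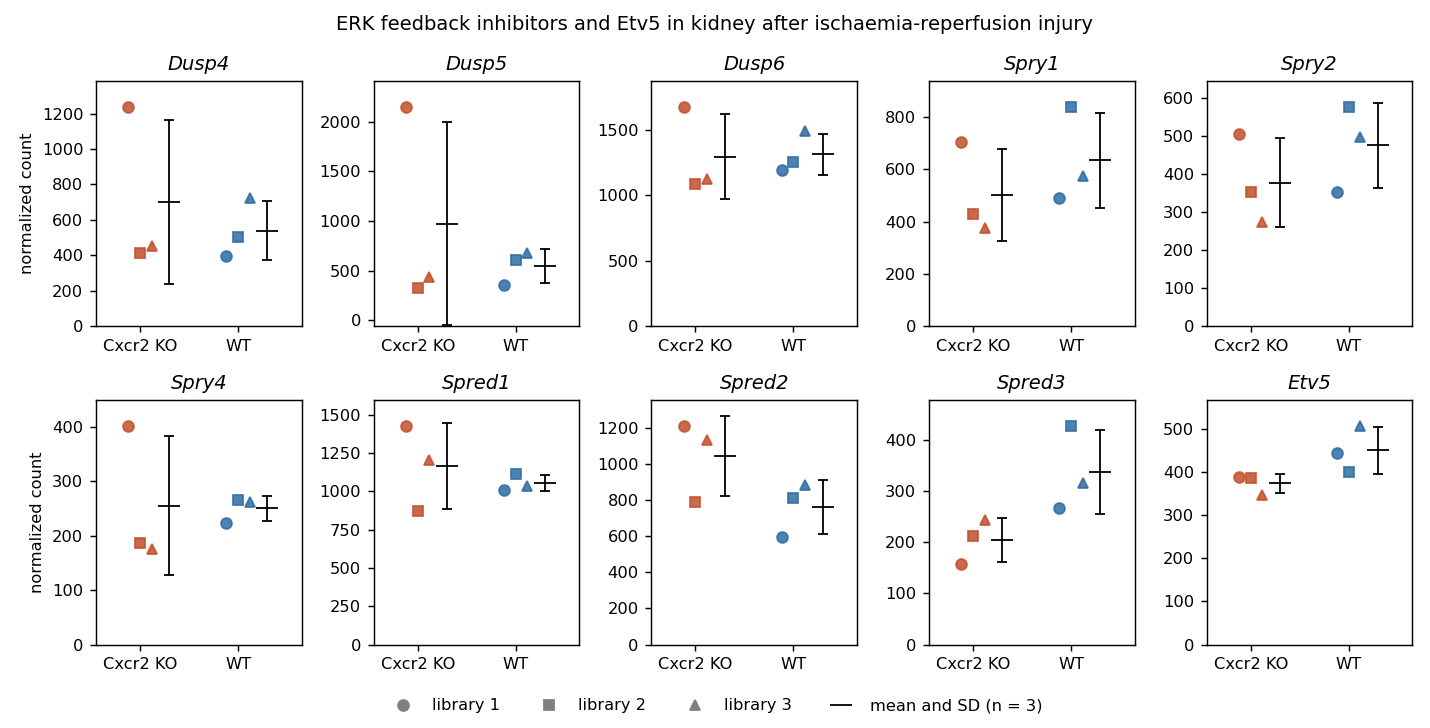
Normalized counts of the 10 genes in the libraries labelled Cxcr2 KO (left in each panel) and WT (right), 1 symbol per library, with the mean and SD of 3 libraries at the right of each group. Labelled-knockout library 1 is the highest of the 6 libraries for Dusp4, Dusp5, Dusp6, Spry4, Spred1 and Spred2, and the groups are apart for Spred3 and Etv5 only.

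The phosphatases differed most in how far labelled-knockout library 1 stood out. Dusp5, a nuclear phosphatase specific for ERK (chromosome 19, 53529109 to 53542431, plus strand, mm10), had 2153, 327 and 436 normalized counts in labelled-knockout libraries 1 to 3, against 354, 612 and 678 in WT libraries 1 to 3. Labelled-knockout library 1 was above all others, and the other labelled-knockout libraries lay near the low end of WT. The log2 fold change was 0.35 (SE 0.70, 95% interval -1.30 to 2.01, adjusted p = 0.889 by limma), and -0.48 without that library. On recovered reads the log2 fold change of Dusp5 was 0.82 with edgeR and 0.83 with DESeq2, neither called. Dusp4, a nuclear phosphatase that acts on ERK and also on JNK and p38 (chromosome 8, 34807297 to 34819894, plus strand), had 1235, 412 and 453 normalized counts in labelled-knockout libraries 1 to 3, against 395, 501 and 722 in WT. Its pattern was the same in kind, a single high labelled-knockout library and an overlap of the others with WT. The log2 fold change of Dusp4 was 0.23 (SE 0.44, 95% interval -0.79 to 1.25, adjusted p = 0.883 by limma), and -0.27 without labelled-knockout library 1. With edgeR it was 0.37 and with DESeq2 0.38, neither called. Dusp6, the cytoplasmic ERK phosphatase also called MKP-3 (chromosome 10, 99263231 to 99267489, plus strand), was the steadiest phosphatase and the most abundant of the 10 per kilobase. It had 1675, 1090 and 1126 normalized counts in labelled-knockout libraries 1 to 3, against 1197, 1256 and 1494 in WT, so labelled-knockout library 1 was above and the other labelled-knockout libraries were below every WT library. Dusp6 averaged 1297 ± 328 in the libraries labelled knockout and 1315 ± 157 in WT (SD, n = 3 each), a log2 fold change of -0.04 (SE 0.20, 95% interval -0.50 to 0.42, adjusted p = 0.958 by limma). Dusp5 shares 547 exon bases with an antisense gene annotated on the other strand, which was not among the genes listed. Since the use of strand in counting is not known, the Dusp5 count may hold reads of both.

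The Dusp5 and Dusp6 promoters are shown because these phosphatases had the widest and the narrowest spread of the 3 between libraries, the highest library being 6.58 times the lowest for Dusp5 and 1.54 times for Dusp6. Each window runs from 250 bases before to 50 after the RefSeq start (GRCm38.p6), and capitals mark AGGAAG, the PEA3-type ETS core, read here on the opposite strand. The Dusp5 window is chr19:53528895-53529194 on the plus strand and the Dusp6 window chr10:99262981-99263280 on the plus strand.
Dusp5: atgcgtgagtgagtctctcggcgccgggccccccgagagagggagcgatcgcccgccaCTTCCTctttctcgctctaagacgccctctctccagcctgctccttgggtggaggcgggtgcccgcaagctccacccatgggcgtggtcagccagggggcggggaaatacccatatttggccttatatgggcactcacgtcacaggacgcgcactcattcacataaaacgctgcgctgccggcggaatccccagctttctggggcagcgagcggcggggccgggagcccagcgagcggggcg
Dusp6: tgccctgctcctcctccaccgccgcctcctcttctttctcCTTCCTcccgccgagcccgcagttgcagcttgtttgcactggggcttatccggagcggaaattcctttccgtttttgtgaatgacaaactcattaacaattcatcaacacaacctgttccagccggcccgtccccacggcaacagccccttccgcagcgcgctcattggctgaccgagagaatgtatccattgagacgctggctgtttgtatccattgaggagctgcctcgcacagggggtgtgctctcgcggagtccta
Each window held a single match, starting 192 bases before the start for Dusp5 and 210 before for Dusp6. Promoters were found for 8 of the 10 genes, in 9 windows, since Etv5 has 2, and Dusp4 and Spry4 were not among them. AGGAAG, searched on both strands, was in 4 of the 9 windows, beside 35.35% of all 32851 promoter windows of that length. These were the windows of Dusp5, Dusp6 and Spred2 and a single window of Etv5. The longer ETS motif CCGGAAGT, the AP-1 motif TGANTCA and the CRE motif TGACGTCA were in 0 of the 9 windows. Of all windows, 3.89%, 7.81% and 1.79% held them, in that order. The serum response element was searched as a single fixed 10-base sequence, found in 0 of the 9 windows and 0.06% of all windows. Other forms of this element were not searched, and their share of all windows was not counted. The Dusp5 window above holds ccatatttgg and ccttatatgg side by side. Both have the general form of the element, CC, then only A or T, then GG. The 5 motifs were searched independently, and no matches overlapped. A match describes letters and does not show binding, and the absence of one says only that these letters are not in the window.

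The Sprouty genes had their lowest value in labelled-knockout library 3 and overlapped between groups. That library was also the lowest of the 6 in summed collecting duct markers, at 3143 normalized counts, against 22491 and 14828 in labelled-knockout libraries 1 and 2 and 10400 to 15965 in WT. It was lowest too in thick limb and distal tubule markers, at 22249, against 85432 and 43935 in labelled-knockout libraries 1 and 2 and 40061 to 78465 in WT, and in the endothelial (4924) and fibroblast, pericyte and smooth muscle (3667) sums. The part of these cells in the Sprouty values was not tested. Spry1, which limits signalling from RET and FGF receptors (chromosome 3, 37639947 to 37644598, plus strand), had 704, 428 and 374 normalized counts in labelled-knockout libraries 1 to 3, against 491, 837 and 573 in WT. Labelled-knockout library 1 lay inside the WT range and the other labelled-knockout libraries below it. The log2 fold change was -0.36 (SE 0.29, 95% interval -1.01 to 0.30, adjusted p = 0.694 by limma). Spry2, a close relative that also binds the ubiquitin ligase CBL (chromosome 14, 105891947 to 105896819, minus strand), had 505, 353.4 and 275 normalized counts in labelled-knockout libraries 1 to 3, against 353.6, 575 and 496 in WT. It followed the same order of labelled-knockout libraries as Spry1, with a log2 fold change of -0.35 (SE 0.28, 95% interval -0.97 to 0.28, adjusted p = 0.688 by limma). Spry4 (chromosome 18, 38586268 to 38601268, minus strand), which inhibits RAF activation, had 402, 186 and 176 normalized counts in labelled-knockout libraries 1 to 3, against 224, 266 and 262 in WT. Labelled-knockout library 1 was above all WT values and the other labelled-knockout libraries below them, and the means were 255 ± 128 in the libraries labelled knockout and 250.4 ± 22.9 in WT (SD, n = 3 each). The log2 fold change of Spry4 was -0.08 (SE 0.33, 95% interval -0.83 to 0.67, adjusted p = 0.952 by limma). Spry1 shares 710 exon bases with Gm42922 on the other strand, which was listed at no more than 6.48 normalized counts. Spry3, the remaining Sprouty gene, was at 0 to 4.55 normalized counts in the 6 libraries.

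The Spred genes ran in different directions. Spred1, which brings neurofibromin to the membrane to switch RAS off (chromosome 2, 117121374 to 117182279, plus strand), had 1429, 869 and 1206 normalized counts in labelled-knockout libraries 1 to 3, against 1012, 1114 and 1034 in WT. The WT libraries were close together and the labelled-knockout libraries lay on both sides of them, with a log2 fold change of 0.12 (SE 0.20, 95% interval -0.33 to 0.57, adjusted p = 0.857 by limma). Spred2, which acts in the same way (chromosome 11, 19924375 to 20024026, plus strand), had 1212, 790.0 and 1131 normalized counts in labelled-knockout libraries 1 to 3, against 597, 810 and 882 in WT. Labelled-knockout libraries 1 and 3 were above every WT library and library 2 was within the WT range. Spred2 had a log2 fold change of 0.45 (SE 0.22, 95% interval -0.06 to 0.95, adjusted p = 0.541 by limma). Spred3, the family member that lacks a functional KIT-binding domain (chromosome 7, 29158829 to 29170411, minus strand), had 158, 213 and 243 normalized counts in labelled-knockout libraries 1 to 3, against 267, 427 and 315 in WT. Here labelled-knockout library 1 was the lowest of all 6, not the highest, and the groups did not overlap. The means were 205 ± 43.0 in the libraries labelled knockout and 337 ± 82.1 in WT (SD, n = 3 each), a log2 fold change of -0.71 (SE 0.26, 95% interval -1.31 to -0.11, adjusted p = 0.445), lower in 3 of 3 libraries. That was the smallest p of the 10, and it stood at rank 1232 of 21721 genes. The unadjusted limma p of Spred3 was above 0.05 without WT library 2 (0.116, log2 fold change -0.52) and without WT library 3 (0.054, log2 fold change -0.74). Spred3 shares 202 exon bases with Ggn on the other strand, which had 23.4, 29.0 and 31.9 normalized counts in labelled-knockout libraries 1 to 3, against 25.1, 36.1 and 52.3 in WT. With 3 libraries against 3, the smallest p that an exact permutation test of 1 gene allows is 0.1.

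Etv5 (chromosome 16, 22381309 to 22439719, minus strand) had 389, 385 and 348 normalized counts in labelled-knockout libraries 1 to 3, against 444, 399.7 and 507 in WT. The groups did not overlap, although labelled-knockout library 1 and WT library 2 were close. The means were 374 ± 22.7 in the libraries labelled knockout and 450.3 ± 54.1 in WT (SD, n = 3 each), a log2 fold change of -0.26 (SE 0.18, 95% interval -0.67 to 0.15, adjusted p = 0.635 by limma), lower in 3 of 3 libraries. Etv5 also shares 98.6% identity over 1700 bases with Gm4798, a gene listed at 0 to 5.02 normalized counts, so its own count is uncertain. Likewise Spred1 shares 95.3% identity over 169 bases with Vps35, which had 3162 to 3727 normalized counts in the libraries labelled knockout and 2840 to 3389 in WT. Spred2 shares 96.1% over 179 bases with Gm14612, which was not among the genes listed. The counts of both may be affected.

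The promoters of Spred3 and Etv5 are shown because these were the members whose groups did not overlap. The Spred3 window is chr7:29168598-29168897 and the Etv5 window chr16:22438319-22438618, both on the minus strand of GRCm38.p6 (RefSeq), and capitals again mark AGGAAG. Both windows lie wholly inside the genes as counted, whose upstream ends are at 29170411 for Spred3 and 22439719 for Etv5. The RefSeq starts used are thus downstream of those ends.
Spred3: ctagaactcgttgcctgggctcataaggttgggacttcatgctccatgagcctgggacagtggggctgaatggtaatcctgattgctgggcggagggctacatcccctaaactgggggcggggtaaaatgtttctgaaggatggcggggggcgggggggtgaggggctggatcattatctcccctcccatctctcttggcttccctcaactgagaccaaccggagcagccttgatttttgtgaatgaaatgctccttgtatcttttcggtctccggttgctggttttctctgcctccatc
Etv5: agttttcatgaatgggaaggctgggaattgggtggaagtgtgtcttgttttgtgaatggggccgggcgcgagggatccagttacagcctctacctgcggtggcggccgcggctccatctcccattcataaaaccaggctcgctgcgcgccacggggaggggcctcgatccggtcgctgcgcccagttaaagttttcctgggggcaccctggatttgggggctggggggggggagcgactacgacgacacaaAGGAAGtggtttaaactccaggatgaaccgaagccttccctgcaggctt
The Etv5 window was chosen of 2 for its match. The other, chr16:22439521-22439820, spans the upstream end of the gene as counted and held none. The match began at the second transcribed base, and the Spred3 window held no match to any of the 5 motifs.

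Per kilobase of gene length, Dusp6 was the most abundant of the 10 in both groups, at 414 ± 105 normalized counts per kilobase in the libraries labelled knockout and 420.0 ± 50.2 in WT (SD, n = 3 each). In WT it was clear of the next gene, Spry2 (range 382 to 477 against 169 to 276). Spry2, Dusp5, Spry1, Dusp4, Spred2 and Spred1 followed in WT, with means of 155 to 228 per kilobase, and neighbours in that order did not differ beyond their spread. Etv5 (110 ± 13.2) was below them, and Spry4 (54.6 ± 5.00) and Spred3 (54.1 ± 13.2) were lowest and level with each other. In the libraries labelled knockout the order was Dusp6, Dusp5, Dusp4, Spred2, Spry2, Spry1, Spred1, Etv5, Spry4 and Spred3. There the ranges of Dusp6 and Dusp5 overlapped (348 to 535 against 132 to 871), and the places of Dusp5 and Dusp4 rest on library 1, at 871 and 451. Over labelled-knockout libraries 2 and 3 alone Dusp5 averaged 154 and Dusp4 158 per kilobase, below Spred2 at 208. Etv5 (91.1 ± 5.53) was below Spred1 (172 ± 41.5), and Spred3 stood at 32.9 ± 6.91.

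The make-up of each family per kilobase differed between libraries. Dusp5 made up 46.9% of the summed Dusp4, Dusp5 and Dusp6 level in labelled-knockout library 1, against 21.0% and 25.2% in labelled-knockout libraries 2 and 3 and 21.4% to 29.8% in WT. Dusp4 kept a share of 23.6% to 24.3% in the libraries labelled knockout and 21.5% to 26.0% in WT. Spry1 made up 41.2% to 43.1% of the Sprouty sum in the libraries labelled knockout and 40.1% to 46.3% in WT, and Spry4 11.3% to 15.3% in the libraries labelled knockout and 9.31% to 12.6% in WT. Spred3 made up 5.10%, 10.3% and 8.46% of the Spred sum in labelled-knockout libraries 1 to 3, against 13.4%, 16.8% and 12.9% in WT libraries 1 to 3, with no overlap. Spred2 made up 51.3% to 53.0% in the libraries labelled knockout and 40.2% to 48.4% in WT, also with no overlap. These shares are descriptions and were not tested.

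**Figure D3:**
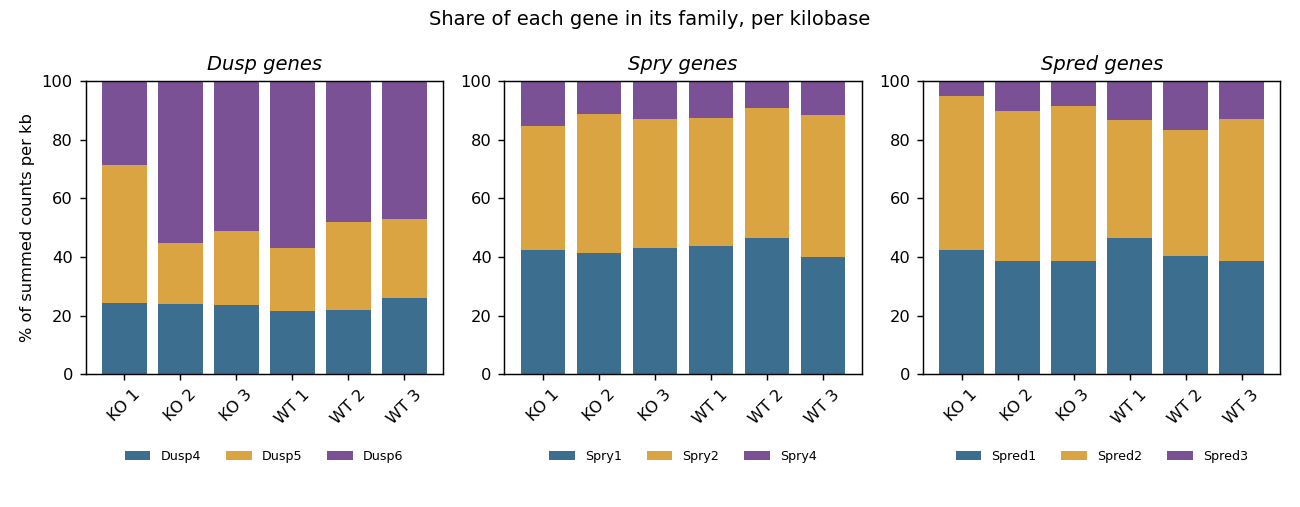
Share of each gene in the summed normalized counts per kilobase of its family (y axis, percent), for labelled-knockout (KO) libraries 1 to 3 on the left and wild-type (WT) libraries 1 to 3 on the right. Dusp5 takes 46.9% in labelled-knockout library 1, and Spred3 takes 5.10% to 10.3% in the KO libraries and 12.9% to 16.8% in WT.

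Labelled-knockout library 1 decided the sign of several differences. Relative to the WT mean, the median of the 10 genes stood at 0.40, -0.37 and -0.32 on the log2 scale in labelled-knockout libraries 1 to 3, against -0.32, 0.10 and 0.13 in WT libraries 1 to 3. Above the WT mean there were 8, 1 and 2 of the 10 genes in labelled-knockout libraries 1 to 3. In this median, labelled-knockout libraries 2 and 3 were close to each other and to WT library 1. With labelled-knockout library 1 left out, 9 of 10 genes had a negative log2 fold change and the median was -0.38, where 50.5% of all genes tested were negative and their median was -0.005. Dusp4, Dusp5 and Spred1 (-0.04) turned negative, and Spred2 (0.33) was the only positive member. In that fit 4 members had an unadjusted limma p under 0.05 in the lower direction, Spry1 (-0.63), Spry2 (-0.58), Spry4 (-0.46) and Spred3 (-0.54), where 7.96% of all genes did. None of the 10 passed adjustment over all genes (lowest adjusted p = 0.311), and 0.0184% of all genes did. Every remaining labelled-knockout value lay below every WT value for 6 of the 10 genes, where 16.0% of all genes tested did so. Library 1 was the highest of the 6 libraries for 6 of the 10 genes, so leaving it out lowers those genes by construction. The counts without it are descriptions, and the shares of all genes are no test of them. With labelled-knockout library 2 left out instead, Spred1 and Spred2 lay wholly above WT, where 13.7% of all genes did. Spred2 (0.64) then had an unadjusted limma p of 0.022, where 4.38% of all genes had one under 0.05 in the higher direction. For both genes library 2 was the lowest of the libraries labelled knockout, so leaving it out raises them by construction. With labelled-knockout library 3 left out, 6 members were positive and 4 negative, with a median of 0.06. Labelled-knockout library 1 was highest in Dusp4 and Dusp5, in fat cell, neutrophil and erythrocyte sums, and in proximal tubule, thick limb and distal tubule, and collecting duct sums. In labelled-knockout library 2 and WT library 1, Dusp4 stood at -0.34 and -0.40 and Dusp5 at -0.69 and -0.57. There the list medians were 3.44 and 2.30 for fat cell, -0.90 and -1.15 for neutrophil, and -0.51 and 0.98 for erythrocyte markers. In labelled-knockout library 3, WT library 2 and WT library 3, Dusp4 stood at -0.21, -0.06 and 0.47 and Dusp5 at -0.27, 0.21 and 0.36. The list medians of those libraries were -2.21, -1.24 and -0.97 for fat cell and 0.05, 0.69 and 0.53 for neutrophil markers. For erythrocyte markers they were -0.66, -1.04 and 0.11. The part of these cells in the Dusp4 and Dusp5 values was not tested.

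**Figure D4:**
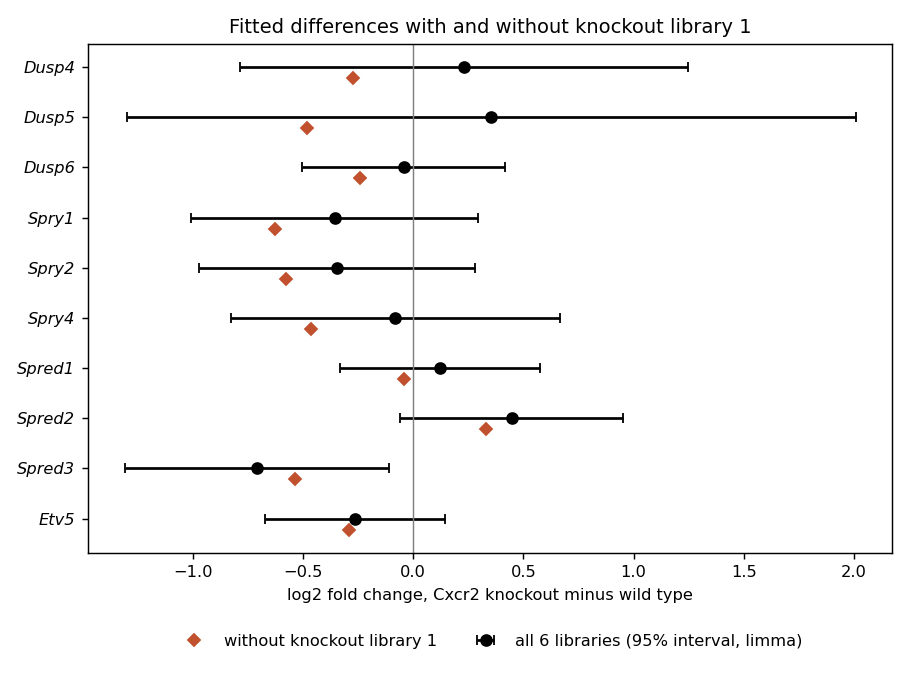
Log2 fold change of labelled knockout over wild type for the 10 genes from limma on all 6 libraries (black points with 95% intervals) and with labelled-knockout library 1 left out (diamonds). All intervals but that of Spred3 (-1.31 to -0.11) include 0, and 9 of the 10 diamonds lie below 0.

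Of the 80 other genes of the pathway in 6 lists, limma called 0, edgeR called 0 and DESeq2 called 2, Egr2 and Fgfr4. The shares called of all genes tested were 0.0046% with limma, 0.00628% with edgeR and 1.95% with DESeq2. Before adjustment 7 of the 80 had a limma p below 0.05, 4 with higher and 3 with lower values, where 10.1% of all genes tested had such a p in either direction. The core cascade from adaptor to kinase varied little between libraries. Its 15 genes had 9 positive and 6 negative log2 fold changes with a median of 0.03, and list medians of 0.00, -0.00 and 0.13 in labelled-knockout libraries 1 to 3. Ksr1, a scaffold for the cascade (-0.43), and Braf, a MEK kinase (0.23), were among its members of smallest p. The 15 other ERK-induced genes had 7 positive and 8 negative values with a median of -0.04, and list medians of 0.98, -0.51 and -0.53 in labelled-knockout libraries 1 to 3. Egr2, an immediate early transcription factor, had 60.1, 88.1 and 44.3 normalized counts in labelled-knockout libraries 1 to 3, against 159, 254 and 196 in WT. Egr2 was thus low in all 3 libraries labelled knockout, library 1 included, with a log2 fold change of -1.68 (SE 0.34, adjusted p = 0.368 by limma), and it passed with DESeq2 only (adjusted p = 0.00221). Plaur, the urokinase receptor (-0.37), and Ier3 (-0.60) followed. Without labelled-knockout library 1, 14 of these 15 genes were negative with a median of -0.54, where 50.5% of all genes tested were negative. In that fit 7 of the 15 had an unadjusted limma p under 0.05 in the lower direction, where 7.96% of all genes did. Library 1 had the highest median of this list among the 6 libraries, so leaving it out lowers the list by construction. Without labelled-knockout library 3 instead, 11 of the 15 were positive, with a median of 0.17.

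The 7 other MAP kinase phosphatases had 3 positive and 4 negative values with a median of -0.03, with Dusp8 (0.42), Dusp16 (0.27) and Dusp9 (-0.45) of smallest p. Their list medians of 0.95, -0.27 and -0.24 in labelled-knockout libraries 1 to 3 had the same order as those of Dusp4 and Dusp5. The 11 ETS factors had 6 positive and 5 negative values and a median of 0.03. Elk3, an ETS factor of the ternary complex group, averaged 334 ± 55.9 normalized counts in the libraries labelled knockout and 603 ± 143 in WT (log2 fold change -0.84, SE 0.23, adjusted p = 0.383 by limma), with no overlap. Erf, an ETS repressor that ERK inactivates, stood at 0.32 and Etv6 at 0.24. The 12 other brakes had 8 positive and 4 negative values and a median of 0.10, with Lrig1, which lowers receptor levels (0.63), Pebp1, an inhibitor of the cascade (-0.27), and Spry3 of smallest p.

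The 20 receptors and ligands upstream had 12 positive and 8 negative values and a median of 0.16. Fgfr4, an FGF receptor, averaged 1282 ± 93.5 normalized counts in the libraries labelled knockout and 625 ± 204 in WT, a log2 fold change of 1.09 (SE 0.25, adjusted p = 0.373 by limma, DESeq2 adjusted p = 0.0269). Egfr, the EGF receptor, had 2603, 1228 and 1696 normalized counts in labelled-knockout libraries 1 to 3, against 1070, 849 and 937 in WT (log2 fold change 0.89, adjusted p = 0.391 by limma). Pdgfra, a receptor of fibroblasts, averaged 337 ± 176 normalized counts in the libraries labelled knockout and 954 ± 415 in WT (log2 fold change -1.58, adjusted p = 0.414 by limma). Beside it, 8 of 8 fibroblast, pericyte and smooth muscle markers had negative log2 fold changes, 0 were called by limma, and 5 lay wholly below WT. Of the other 3, Dcn and Lum were highest of all 6 in labelled-knockout library 1. DESeq2 called Acta2 (adjusted p = 0.000671), Pdgfrb (0.00299), Tagln (0.00355) and Col3a1 (0.00658) and none of the remaining markers of this list. It called 1.95% of all genes. The part of these cells in the Pdgfra values was not tested. Of the 20 receptors and ligands, 5 lay wholly above WT in the libraries labelled knockout and 1 wholly below, where 8.27% and 9.43% of all genes did. The wider pathway lists were chosen with earlier results of these data known, and their counts are descriptions.

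**Figure D5:**
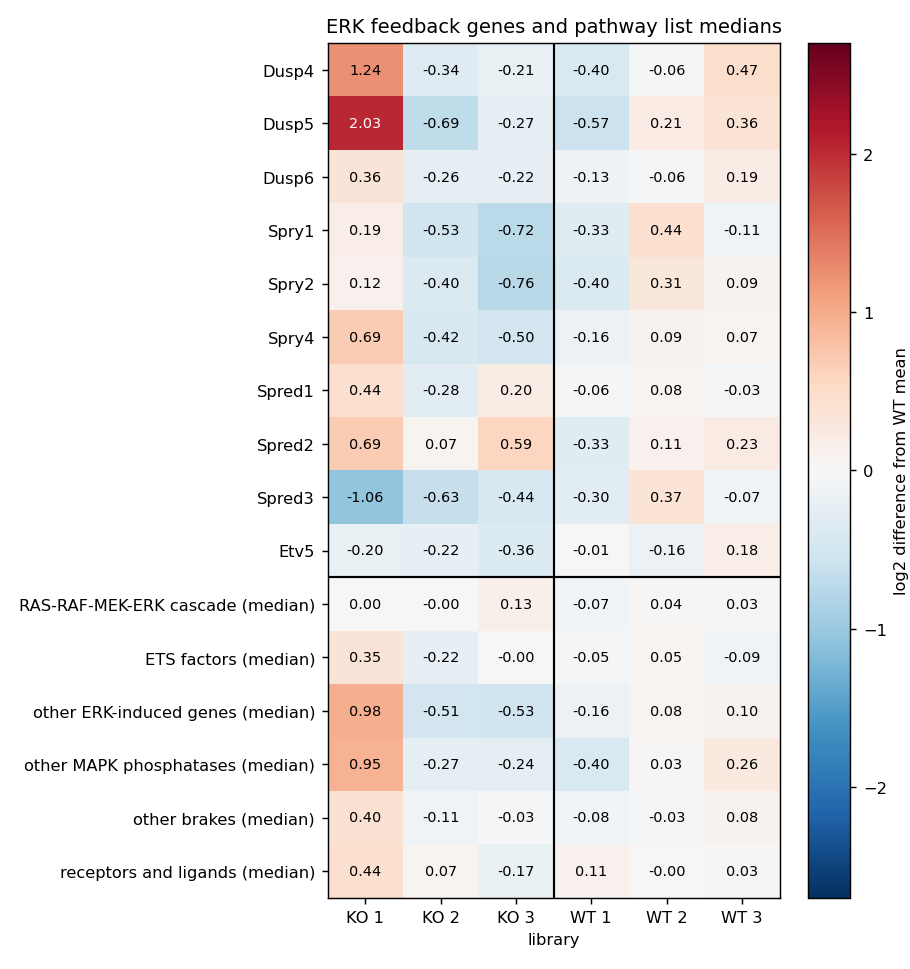
Log2 difference from the WT mean in labelled-knockout (KO) libraries 1 to 3 and wild-type (WT) libraries 1 to 3 (columns) for the 10 genes (upper rows) and the medians of 6 pathway lists (lower rows), with red for higher and blue for lower. Dusp5 reaches 2.03 and Dusp4 1.24 in labelled-knockout library 1, where the other ERK-induced genes stand at 0.98, while the cascade list stays between -0.07 and 0.13 in all 6 libraries.

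Among 12412 candidate genes with a mean of at least 50 normalized counts, those whose centred log2 values over the 6 libraries lay closest to Dusp6 were AI606181, Rnf41 and Cgn, with root mean square differences of 0.051 to 0.060. For Etv5 they were Slc25a13, Pop5 and Tmem120a, with differences of 0.043 to 0.059. With 6 libraries and so many candidates, such closeness is a description only.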

How the data were processed

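RNA of mouse kidney was sequenced in 3 libraries labelled CXCR2 knockout and 3 labelled WT, all after IRI. The authors deposited 1 signal value per gene and library. In each library 100% of these values came out as whole numbers, within 0.001, when divided by the smallest value above 0, so they have the form of read counts scaled by a size factor, and whole reads were recovered in this way. The genome build was mm10, per the submitters' processing notes. The sources used here do not give the aligner, counter, annotation or use of strand. Group membership follows the genotype label, and library numbers follow the sample titles.

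The main test was limma 3.58.1 (trend and robust options, R 4.3.3) on log2(normalized count + 1) for genes with a mean of at least 1, with Benjamini-Hochberg adjustment over 21721 genes and a threshold of 0.05. Fold changes are on that scale. The edgeR 4.0.16 and DESeq2 1.42.0 tests on recovered reads, other pseudocounts, filters and scalings, a replicate block and leaving out each library were alternatives. The functions were tested on simulated counts. Values per kilobase use the deposited gene length. Promoters are from RefSeq (GRCm38.p6). Other genes overlapping a member, or at least 95% identical over 100 bases, were looked up in GENCODE M21. The starts and ends of 9 of the 10 genes were the same there, all but those of Spry4. Besides the 10 genes and Cxcr2, the 3 genes of smallest p of each pathway list were named, and the 3 nearest to Dusp6 and to Etv5; a gene that this rule takes is not reported here. Members and lists were chosen with earlier results of these data known. Every pair of same-numbered libraries was checked for shared deviations, with correlations of 0.067, -0.148 and 0.122 over 12841 genes. With 3 libraries a group these cannot exclude a pairing, and numbers 1 to 3 are used here only as names.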

Additional observations from a re-analysis of the deposited data

How the results depend on the processing

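Of the 10 genes, 0 were called under any of the 14 alternatives, and the median log2 fold change ran from -0.38 to 0.08 with 1 library left out. Under the same leaving out, Dusp4 ran from -0.27 to 0.52, Dusp5 from -0.48 to 0.88, Dusp6 from -0.24 to 0.069, Spry4 from -0.46 to 0.13 and Spred1 from -0.040 to 0.32. Signs turned for Spry4 with edgeR (0.021) and DESeq2 (0.023) on recovered reads. Leaving out labelled-knockout library 1 turned Dusp4 (-0.27), Dusp5 (-0.48) and Spred1 (-0.040). Leaving out labelled-knockout library 2 turned Dusp6 (0.069) and Spry4 (0.092), and leaving out library 3 turned Dusp6 (0.05) and Spry4 (0.13). Dusp6 turned also without WT library 3 (0.05). The cause was not tested. The genes called among all those tested, 1 with limma, were 5 with a pseudocount of 5, 5 without the filter on low values, 4 with TMM scaling, 316 with DESeq2, and 1 to 4 with a library left out. With a replicate block they were 16, and the block moved no call of the 10 genes. Whether the numbers pair the libraries is not known. The count of genes with every labelled-knockout value below WT, an alternative chosen after the values were seen, was 2 to 6 with a library left out, the highest without labelled-knockout library 1. The count wholly above WT was 0, and 2 without labelled-knockout library 2. With 3 libraries a group, the interval of Dusp5 spans -1.30 to 2.01, so a large difference could have been missed.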
